A study of Mus musculus with 12 samples.

Results

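The numbered Zfp genes are the mouse zinc finger genes whose symbol is Zfp followed by a number, and the array platform used here carries 304 of them. A gene was taken as a member where at least 1 of its probes had a detection p-value under 0.05 on at least 6 of the 12 arrays, and each gene was read from its brightest such probe. This left 205 members of the 10936 genes measured under the same rule. The rule used signal and detection, so the levels of the members describe them and test nothing, while the difference between the groups of mice was not part of the rule. The members were proposed with results of these arrays already known.

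Total RNA of the hippocampus of female C57BL/6J mice, 12 weeks old, was hybridised to 1-colour Illumina bead arrays, 1 array per sample. The EtOH group held 6 samples labelled as prenatally exposed to alcohol, where dams drank 10% ethanol (v/v) by choice between 0.5 and 8.5 days after mating. The Control group held 6 samples. The description of the drinking stands on Control samples too, so the groups come from the titles and the treatment label, and what Control dams drank is not given in the labels. The amount each dam drank and the litters are not given either, so each array was treated as independent and the p-values measure only the spread between arrays.

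C2H2 zinc finger proteins carry repeated fingers, each folded around a zinc ion by a pair of cysteines and a pair of histidines, and tandem fingers read DNA bases in turn. Many rodent Zfp genes also encode a KRAB domain, which recruits Trim28 (KAP1) and with it histone methylation and heterochromatin proteins to silence retroelements and to keep imprints. The Zfp symbol is a naming class rather than a pathway, and some members act on RNA, ribosomes or the cytoskeleton.

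Median raw intensity per array lay between 131.1 and 146.9 in the EtOH group and between 126.0 and 143.5 in the Control group, and pairs of arrays correlated between 0.983 and 0.994. The titles place 4 EtOH and 2 Control arrays on chip 1 and 2 EtOH and 4 Control arrays on chip 2. On EtOH 2, EtOH 4, Control 2 and Control 4 the mean level of the choroid plexus marker list was 10.36 or more, against at most 7.52 on the other 8 arrays, with 5 of the 9 list genes measured. All values are log2 intensities after background correction and quantile normalization, and differences are EtOH minus Control, adjusted for the chip, with a 95% confidence interval from limma. In these tissue samples fewer cells of a type and less RNA per cell cannot be told apart. The probes of near-copies within the family may share targets, which was not tested.

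Detection of the numbered Zfp genes was common in this tissue. A probe passed for 67.4% of the 304 genes on the platform, against 57.4% of the 19057 named genes. Of the 205 members, 175 were detected on all 12 arrays and 6 on exactly 6. Just inside the limit lay Zfp296, Zfp507, Zfp599 and Zfp781, with mean levels of 5.31, 5.27, 5.31 and 5.43, and Zfp800 and Zfp879, with 5.28 and 5.21. Just outside it, with 5 arrays, lay Zfp92, Zfp384 and Zfp458, with mean levels of 5.29, 5.29 and 5.28. No member was undetected in a whole group. The number of members detected per array ran from 191 to 199 in EtOH mice, against 192 to 202 in Control mice.

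Zfp365 had the brightest probe signal of the family, 12.48 to 12.79 (median 12.64) in EtOH mice, against 12.44 to 12.71 (median 12.58) in Control mice. It encodes a DISC1-binding protein of the brain. Zfp523, the mouse counterpart of the human promoter-binding factor ZNF76, followed with 12.13 to 12.35 (median 12.27) in EtOH mice, against 12.14 to 12.32 (median 12.30) in Control mice. The other bright probes were those of Zfp46, Zfp251 and Zfp330, a nucleolar protein, with mean levels of 11.18, 11.15 and 10.91. In all 5 the groups overlapped, and the differences ran from -0.02 for Zfp523 to 0.09 for Zfp365. At the low end stood Zfp879, Zfp507 and Zfp800, with mean levels of 5.21, 5.27 and 5.28. The brightness of different probes depends on their sequence as well, so the order describes probe signal and not transcript number.

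The median promoter of the members held fewer CpG dinucleotides than the median over all measured genes, members included. RefSeq lists a window of 250 bases before to 50 after the start (GRCm38.p6) for 168 of the 205 members. The median count was 17 CpG (interquartile range 10 to 22), against 21 (12 to 29) over 8842 measured genes, and the median GC content was 56% against 61%. The count ran from 1, in Zfp27 and Zfp235, to 51, in Zfp777, genes chosen here after their values were seen. The promoter of the brightest member, Zfp365, has 8 CpG and that of Zfp382, the member called between chips further on, has 32, and both are shown with each CG in capitals.
Zfp365 (chr10:67912613-67912912, minus strand): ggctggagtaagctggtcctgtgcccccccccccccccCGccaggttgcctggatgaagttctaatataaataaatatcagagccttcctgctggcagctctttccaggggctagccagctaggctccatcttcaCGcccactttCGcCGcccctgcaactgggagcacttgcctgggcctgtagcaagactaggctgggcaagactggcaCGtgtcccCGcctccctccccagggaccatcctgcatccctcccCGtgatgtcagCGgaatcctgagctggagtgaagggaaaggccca
Zfp382 (chr7:30121682-30121981, plus strand): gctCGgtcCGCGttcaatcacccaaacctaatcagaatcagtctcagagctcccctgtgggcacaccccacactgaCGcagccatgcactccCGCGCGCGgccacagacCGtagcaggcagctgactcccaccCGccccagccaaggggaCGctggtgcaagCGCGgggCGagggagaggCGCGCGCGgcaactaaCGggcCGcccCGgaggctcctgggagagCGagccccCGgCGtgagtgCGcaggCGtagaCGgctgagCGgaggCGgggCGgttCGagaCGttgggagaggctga
No CG pairs adjoin in the window of Zfp365, while those of Zfp382 form runs in places.

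A set of 7 short motifs was searched on both strands of these windows. The CCAAT box (CCAAT) stood in 45.2% of the members' windows against 38.6% of all, and the GC box (GGGCGG) in 53.6% against 64.1%. The ETS core (CGGAAG) stood in 32.1% against 30.1%, the TATA box (TATAAA) in 8.33% against 7.54%, the cAMP response element (TGACGTCA) in 3.57% against 3.28%, and the palindrome made of TCTCG and its reverse complement in 0.595% against 1.03%. The site of NRF1 (GCGCA followed by its reverse complement TGCGC), a factor for genes of mitochondria and neurons, stood in 8 members, 4.76% against 1.97%. The GC box holds no other motif of this list, and the NRF1 site reads the same on both strands. The 8 windows of 30 bases around that site, in capitals, show how the same core sits in unlike flanks.
Zfp30 (chr7:29783950-29783979, plus strand): gctcccttgtGCGCATGCGCattgaagcag
Zfp82 (chr7:30072920-30072949, minus strand): agtgagtgtgGCGCATGCGCacgcggtgcg
Zfp213 (chr17:23564252-23564281, minus strand): gcttatccccGCGCATGCGCcagctggttt
Zfp329 (chr7:12818843-12818872, minus strand): accaggatctGCGCATGCGCagttgttgcg
Zfp334 (chr2:165388289-165388318, minus strand): ccgagactctGCGCATGCGCggtctcctag
Zfp639 (chr3:32510559-32510588, plus strand): gcccgctgtgGCGCATGCGCggggtgacgg
Zfp653 (chr9:22071470-22071499, minus strand): gacggactacGCGCATGCGCagctatggct
Zfp658 (chr7:43562162-43562191, plus strand): aaatagtagcGCGCATGCGCttcgccagcc
Of these 8 genes 5 were higher in EtOH mice, beside 67.3% of all members and 52.2% of all genes. Their median difference was 0.053, with a range of -0.06 for Zfp30 to 0.22 for Zfp213. A match of letters is a description and not a bound site.

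No member differed between EtOH and Control mice past the threshold. In limma with Benjamini-Hochberg adjustment over all 20172 probes, 0 of 205 members were called, as were 0% of the 10936 measured genes, and the lowest adjusted p among the members was 1.00. At an unadjusted p under 0.05, 8 members (3.9%) were higher in EtOH mice, against 1.54% of all genes, and 0 were lower, against 1.5% of all genes. Over both directions that was 8 of 205, against 3.04% of all genes.

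The direction of the small differences was uneven. In EtOH mice 138 of the 205 members had the higher chip-adjusted level (67.3%), against 52.2% of all measured genes, and 67 had the lower one. The median difference of the members was 0.039, with an interquartile range of -0.02 to 0.09 and a full range of -0.27 to 0.43, and that of all measured genes was 0.0043. With median scaling in place of quantile normalization the split was 169 of 205 (82.4%), against 75.7% of all genes, and the medians were 0.09 for the members and 0.06 for all genes. For a typical member the interval reached 0.19 to either side (median half-width). The residual SD had a median of 0.14 for the members and for all genes alike.

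**Figure D1:**
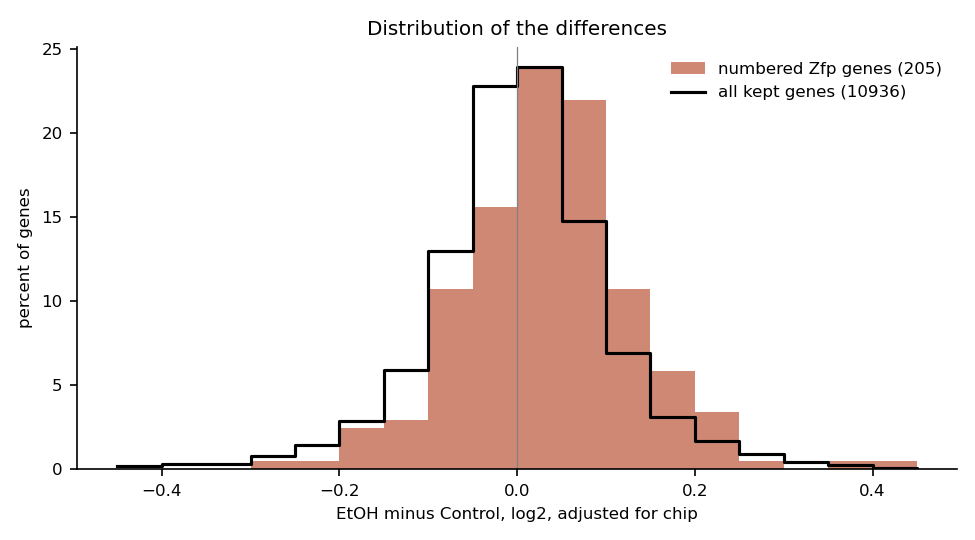
Percent of genes (vertical axis) by EtOH minus Control difference on the log2 scale, adjusted for chip (horizontal axis, bins of 0.05), for the 205 numbered Zfp genes (filled bars) and all 10936 measured genes (black line); differences beyond the axis are not drawn. The bars lie to the right of the line, with 67.3% of the members above 0 against 52.2% of all genes.

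The same side was favoured at every brightness. In 7 bins of mean level the share of members higher in EtOH mice ran from 60.5% to 75%, while the share of the other genes ran from 50.2% to 53.3%. The bin with 75% held 4 members. The median difference of the members in a bin ran from 0.024 to 0.064.

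Array by array the groups overlapped. The median deviation of the 205 members from their own means was 0.061 on EtOH 1, -0.032 on EtOH 2, 0.037 on EtOH 3, 0.022 on EtOH 4, 0.017 on EtOH 5 and 0.018 on EtOH 6. In Control mice it was 0.032, -0.039, -0.015, -0.055, -0.0013 and 0.0053 on Control 1 to Control 6. The EtOH arrays averaged 0.020 ± 0.030 and the Control arrays -0.012 ± 0.031 (SD, n = 6 each). The 3 lowest arrays, Control 4, Control 2 and EtOH 2, are among the 4 with high choroid plexus transcripts, while EtOH 4, the remaining one of these, stood at 0.022. Without these 4 arrays the median difference was 0.026 and 60.5% of the members were higher in EtOH mice, against 51% of all genes. In that fit 6 members had an unadjusted limma p under 0.05. The share of all genes at that p was 3.04% with all arrays and is not given without these 4. The count of 6 is therefore not read as a result about the members. Neocortex markers (4 of 5 measured) averaged 8.14 to 8.92 on EtOH arrays, against 8.10 to 8.55 on Control arrays, thalamus markers (5 of 5) 8.86 to 9.44 against 8.71 to 9.21, and meninges markers (8 of 8) 8.17 to 9.42 against 8.54 to 9.81. With the neocortex and thalamus means as covariates the median difference was 0.029 and 62.4% of the members were higher in EtOH mice, against 52.5% of all genes. With the choroid plexus mean as covariate the median difference was 0.0305 and 65.9% were higher, against 51.9% of all genes. The meninges markers were not used as a covariate. Beyond these fits, the part of any of these tissues in the difference was not tested.

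**Figure D2:**
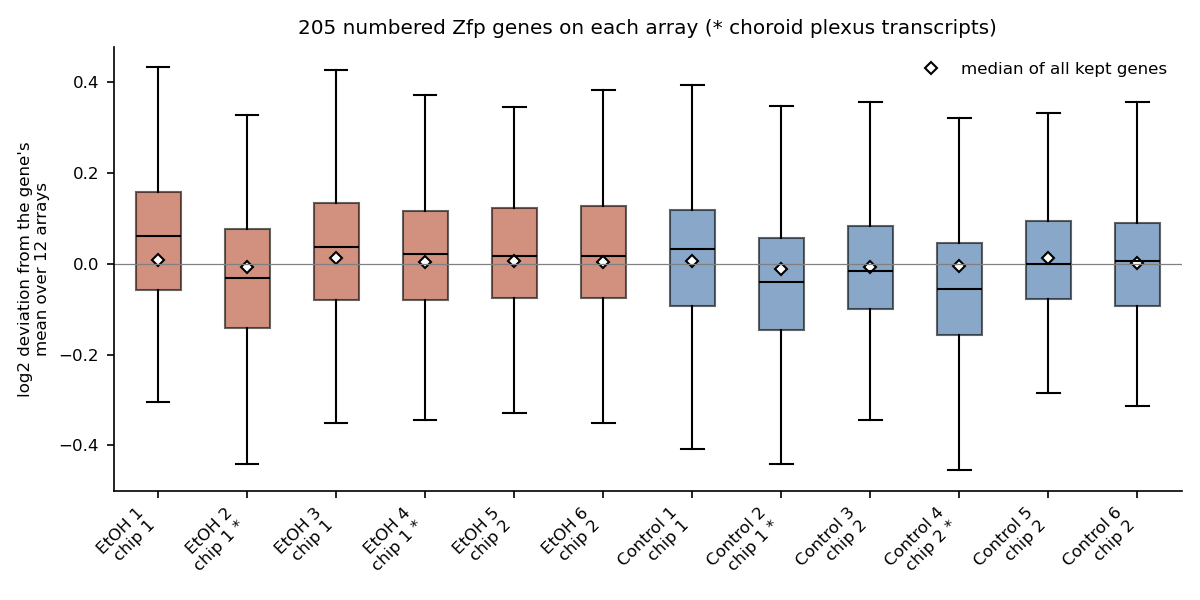
Deviation of the 205 numbered Zfp genes from each gene's mean over the 12 arrays (log2, vertical axis) on each array (horizontal axis, EtOH arrays left, Control arrays right; boxes show the quartiles and median, whiskers reach up to 1.5 interquartile ranges with values beyond them not drawn, diamonds the median of all measured genes, asterisks the 4 arrays with high choroid plexus transcripts). The medians of EtOH arrays run from -0.032 to 0.061 and those of Control arrays from -0.055 to 0.032, so the groups overlap.

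Zfp286 was the member with the smallest p. Its level was 7.50, 7.28, 7.48, 7.37, 7.45 and 7.46 in EtOH mice, against 6.99, 6.96, 7.27, 6.95, 7.24 and 7.21 in Control mice. Every EtOH array lay above every Control array, and it was the only one of 205 members without overlap (0.488%), against 0.119% of all genes. The means were 7.42 ± 0.08 in EtOH mice and 7.10 ± 0.15 in Control mice (SD, n = 6 each), the difference was 0.36 (0.20 to 0.52), and the unadjusted limma p was 0.000303. The difference was 0.43 on chip 1 and 0.29 on chip 2, and 0.32 without the 4 plexus arrays. Over all settings tried it stayed between 0.20 and 0.43. The adjusted p was 1.00, and of its 2 probes on the platform only 1 passed the detection filter.

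The other 7 members with an unadjusted p under 0.05 overlapped between the groups. Zfp703, a transcriptional repressor of the NET family, had 7.45 to 7.75 (median 7.64) in EtOH mice, against 6.96 to 7.56 (median 7.33) in Control mice, a difference of 0.24 (0.03 to 0.46). Its second, dimmer probe, at a mean level of 5.41, gave -0.15 (unadjusted limma p 0.28). All 6 EtOH arrays of the brighter probe lay above the Control median, while the dimmer probe pointed the other way. Zfp213 had 7.50 to 7.81 (median 7.69) in EtOH mice, against 7.26 to 7.72 (median 7.39) in Control mice, a difference of 0.22 (0.02 to 0.42). Its NRF1 site is printed above. Zfp1 had 6.26 to 7.15 (median 6.55) in EtOH mice, against 5.83 to 7.11 (median 6.28) in Control mice, a difference of 0.43 (0.04 to 0.82). That gene was also 0.62 higher on chip 2, and its groups overlapped widely. Zfp106, an RNA-binding protein needed by mouse motor neurons, had 6.00 to 6.67 (median 6.47) in EtOH mice, against 6.02 to 6.41 (median 6.20) in Control mice, a difference of 0.25 (0.02 to 0.48). Zfp654, Zfp866 and Zfp629 differed by 0.18, 0.18 and 0.17. Without the 4 plexus arrays the difference was 0.43 for Zfp106, 0.27 for Zfp1 and 0.10 for Zfp866.

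In the other direction no member reached an unadjusted p under 0.05 in limma. Zfp821 came nearest, with 7.32 to 7.84 (median 7.67) in EtOH mice, against 7.66 to 7.92 (median 7.82) in Control mice. Its difference was -0.18 (-0.38 to 0.03), while its dimmer kept probes gave -0.05 and 0.08. Zfp36, tristetraprolin, binds AU-rich elements of cytokine and immediate-early mRNAs and speeds their decay, through CCCH rather than C2H2 fingers. Its level was 6.59 to 6.96 (median 6.74) in EtOH mice, against 6.79 to 7.08 (median 6.93) in Control mice, a difference of -0.16 (-0.35 to 0.03). In 5 of 6 EtOH mice it lay below the Control median. Zfp507, Zfp583, Zfp689, Zfp781, Zfp446 and Zfp579 differed by -0.27, -0.19, -0.19, -0.14, -0.11 and -0.08, all with intervals that include 0. Zfp781 and Zfp689 lay the other way on chip 1 alone, by 0.10 and 0.04, and Zfp446 on chip 2 alone, by 0.05. The dimmer kept probe of Zfp446 gave 0.06.

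**Figure D3:**
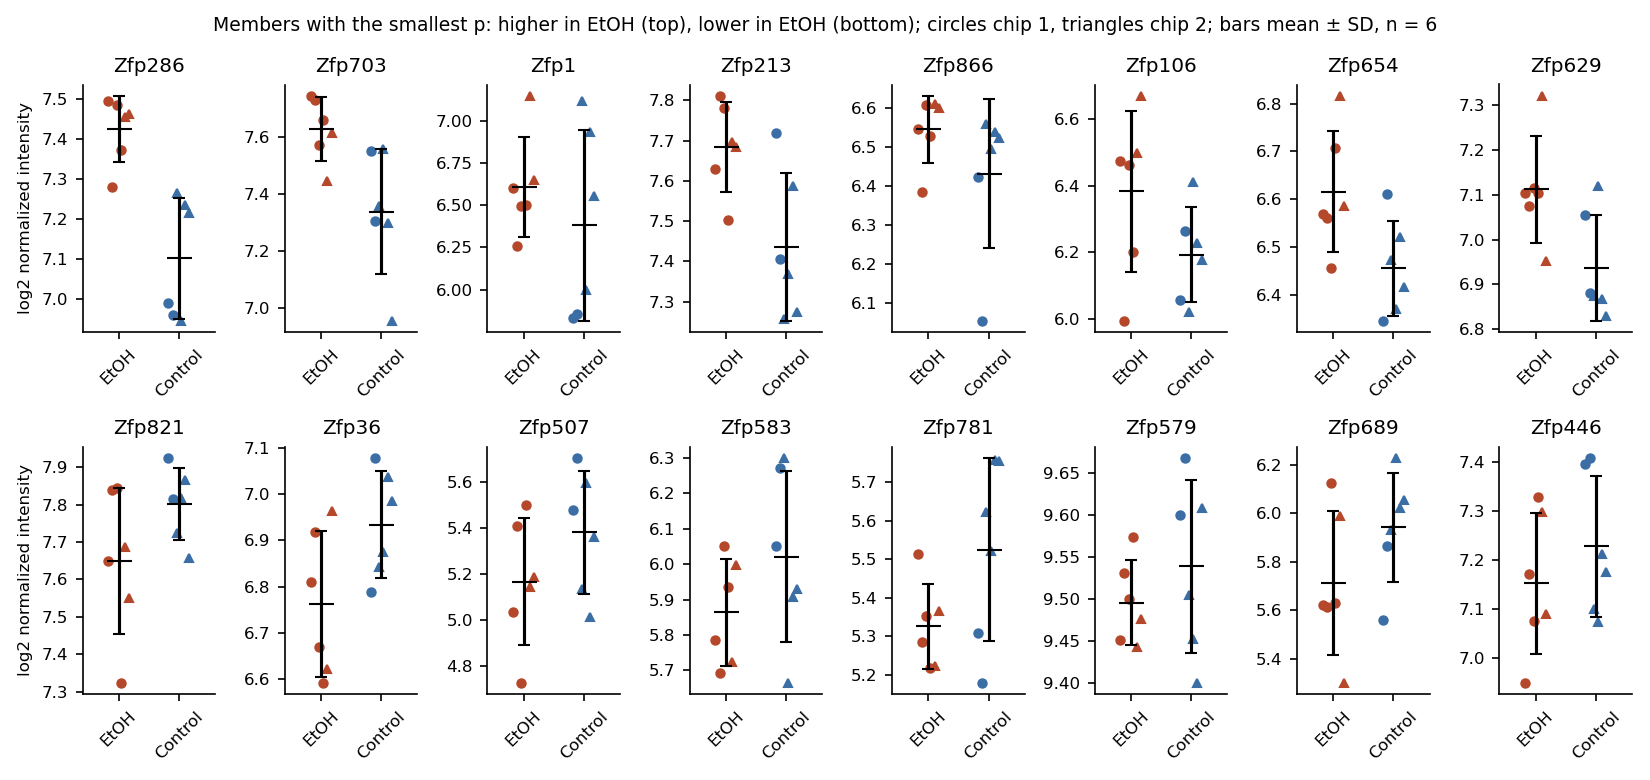
Levels (log2, vertical axis) of the members with the smallest unadjusted p, higher and lower in EtOH mice, on every array, with higher members in the top row and lower ones in the bottom row, EtOH points left of Control points, circles for chip 1, triangles for chip 2, and bars for the mean ± SD (n = 6 each). The groups of Zfp286 are separate, between 7.28 and 7.50 in EtOH mice and between 6.95 and 7.27 in Control mice, while those of the others overlap.

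Members that act on RNA, ribosomes or proteins lay on both sides. Of 11 such members, all measured, 7 were higher (63.6%, beside 52.2% of all genes) and 4 lower in EtOH mice, 0 were called, and the median difference was 0.014, beside 0.0043 over all genes. Zfp346, JAZ, which binds double-stranded RNA, differed by 0.22 (-0.02 to 0.47), while its dimmer kept probe gave -0.02. Zfp106 and Zfp36 are given above. Zfp593, with the largest difference of the list, 0.25 (-0.07 to 0.58), is described with the chips. Zfp622, a factor of large ribosomal subunit maturation, differed by 0.13, and Zfp598, the ubiquitin ligase that marks collided ribosomes, by 0.01. Zfp326, which joins transcription to splicing, differed by 0.04 and Zfp706 by 0.01. Zfp207, BuGZ of the mitotic spindle, differed by -0.05, Zfp638 by -0.10 and Zfp91, a ubiquitin ligase, by -0.03.

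The Zfp genes known for imprints and retroelements were mostly outside the measured set. Of 8 genes on that list, 5 were on the platform and 2 were measured. Zfp445, which keeps genomic imprints, had 8.35 to 8.98 (median 8.66) in EtOH mice, against 8.22 to 8.88 (median 8.53) in Control mice, a difference of 0.15 (-0.11 to 0.41). Zfp809, which silences retroviral elements, had 6.30 to 6.59 (median 6.46) in EtOH mice, against 6.24 to 6.77 (median 6.39) in Control mice, a difference of 0.045 (-0.16 to 0.25). The groups overlapped for both.

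Of 16 genes listed for neurons, glia and their development, 15 were on the platform and 12 were measured. In EtOH mice 8 were higher (66.7%, beside 52.2% of all genes) and 4 lower, with 0 called and a median difference of 0.039. Zfp703 and Zfp365 are given above. Zfp335, whose human counterpart is mutated in a form of microcephaly, differed by 0.07, Zfp292 by 0.07 and Zfp189 by 0.09. Zfp536, a repressor of neuronal differentiation, differed by 0.04, Zfp711, linked in humans to X-linked intellectual disability, by 0.03, and Zfp521 by 0.02. Zfp423, a partner of Smad and EBF proteins in cerebellar development, differed by -0.24 (-0.69 to 0.21). It was detected on 8 of the 12 arrays, at a mean level of 5.50. Its residual SD of 0.39 was among the 3 widest of the family, beside Zfp185 and Zfp768 at 0.60 and 0.37. Zfp185, also detected on 8 arrays, was highest on EtOH 4, Control 2 and Control 4, which had high choroid plexus transcripts. Zfp24, needed for myelination, differed by -0.08 and Zfp516 by -0.03. Zfp148 (ZBP-89) differed by -0.0025 (-0.16 to 0.16).

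Promoter-binding and chromatin factors lay closest to 0. Of 15 listed 9 were measured, 5 higher (55.6%, beside 52.2% of all genes) and 4 lower in EtOH mice. Of these 0 were called, and the median difference was 0.0022. Zfp644 had the largest difference, 0.10 (-0.07 to 0.27), and Zfp827, a partner of the NuRD complex in human cells, the lowest, -0.05. Zfp281, a pluripotency factor, differed by -0.01 and Zfp410, which drives Chd4, by 0.0022. Zfp219, Zfp90, Zfp592, Zfp263 and Zfp202 differed by 0.02, 0.03, 0.01, -0.04 and -0.03. The 171 members outside these 4 lists had 116 higher (67.8%, beside 52.2% of all genes) and 55 lower and a median of 0.041.

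**Figure D4:**
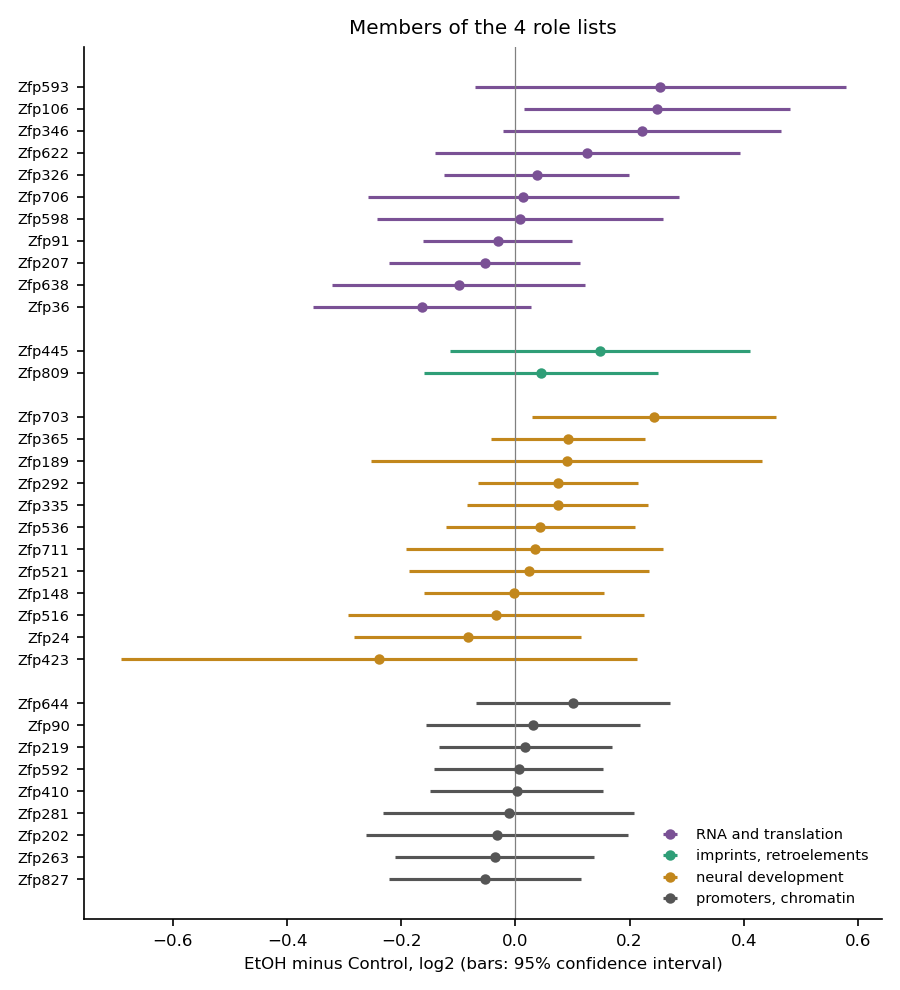
EtOH minus Control difference (log2, horizontal axis) with its 95% confidence interval for the measured members of the 4 role lists (rows, grouped by list). Among the members drawn, only the intervals of Zfp703 and Zfp106 lie wholly above 0, and none lies wholly below it.

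Transcripts listed for the KRAB silencing machinery lay on both sides. Of 35 listed, 29 were on the platform and 24 were measured. In EtOH mice 11 were higher (45.8%, beside 52.2% of all genes) and 13 lower. In limma 0 were called and 1 had an unadjusted p under 0.05 (beside 3.04% of all genes). The median difference was -0.006. Trim28, the corepressor bound by the KRAB domain, had 10.65 ± 0.14 in EtOH mice and 10.69 ± 0.04 in Control mice (SD, n = 6 each), a difference of -0.08 (-0.22 to 0.07). Setdb1, the histone H3K9 methyltransferase of that complex, differed by 0.12 (-0.03 to 0.26), and Cbx3 and Mbd3 both by -0.09. Rbbp7, a histone-binding subunit, had 10.58 ± 0.15 in EtOH mice and 10.75 ± 0.07 in Control mice (SD, n = 6 each), a difference of -0.20 (-0.36 to -0.04), with an adjusted limma p of 1.00.

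Other zinc finger families gave mixed counts, where 52.2% of all genes were higher in EtOH mice. Of 26 numbered Zbtb genes 14 were higher and 12 lower in EtOH mice (median 0.039), of 12 Zscan and Zkscan genes 10 were higher and 2 lower (median 0.054), and of 13 Klf and Sp genes 6 were higher and 7 lower (median -0.003). No gene of these families was called in limma, with 1, 0 and 1 at an unadjusted p under 0.05, beside 3.04% of all genes. Whether the families differ from the numbered Zfp genes was not tested.

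Each chip on its own put more members on the EtOH side. On chip 1 the median difference was 0.032 with 123 of 205 members higher (60%), against 51.1% of all genes, and on chip 2 it was 0.039 with 134 higher (65.4%), against 51%. In 83 members (40.5%) both chips gave a higher level in EtOH mice, against 25% of all genes. In 31 (15.1%) both gave a lower one, against 22.9%. In 91 of the 205 members the chips pointed opposite ways, against 5693 of all 10936 genes.

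**Figure D5:**
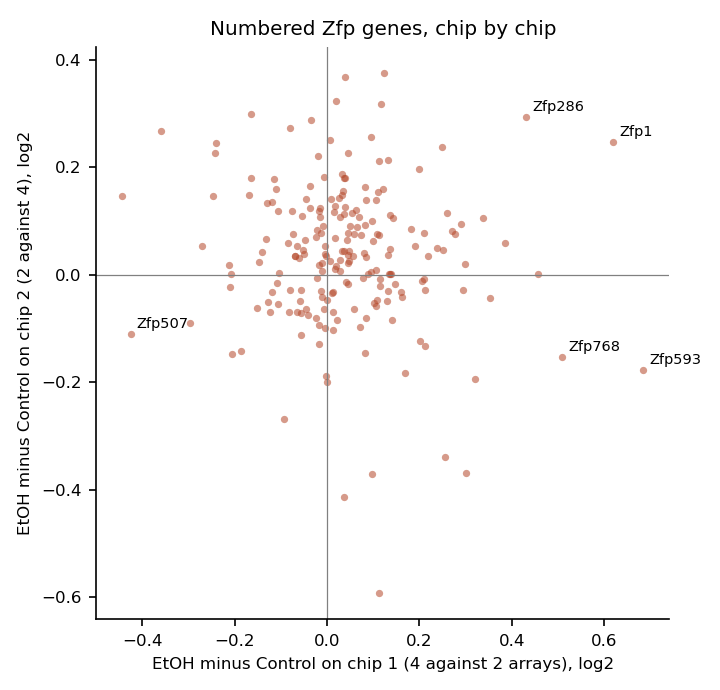
EtOH minus Control difference of each member on chip 1 (horizontal axis, log2, 4 EtOH and 2 Control arrays) and on chip 2 (vertical axis, log2, 2 EtOH and 4 Control arrays), 1 point per gene. The upper right field holds 83 members, the lower left field 31, and the remaining fields 91.

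Some members differed between the chips. In limma 1 member was called between chip 2 and chip 1 (0.488%), against 0.512% of all genes, and 28 (13.7%) had an unadjusted p under 0.05, against 16% of all genes. By any amount 108 of the 205 members were higher on chip 2 (52.7%), against 49.3% of all genes. Zfp382 averaged 6.15 on chip 2 and 5.85 on chip 1, a difference adjusted for the group of 0.35 (0.20 to 0.51), with an adjusted limma p of 0.0491. The call was lost when any 1 array other than EtOH 1 was left out. Zfp593, the counterpart of a yeast factor of the large ribosomal subunit, was 0.62 higher on chip 2, and Zfp865 and Zfp467, a regulator of fat cell formation, were 0.32 and 0.31 higher, none of them called. Zfp292, Zfp91, Zfp551 and Zfp597 were lower on chip 2, by differences of -0.26, -0.25, -0.23 and -0.22, and were not called either.

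For Zfp593 the difference between the groups depended most on the chip, by the p of that term. Its level was 5.74 to 6.22 (median 6.08) in EtOH mice, against 5.19 to 6.42 (median 6.27) in Control mice. The gene was detected on all 6 EtOH arrays but on only 4 of the 6 Control arrays. Its lowest values, 5.35 and 5.19, were those of Control 1 and Control 2, the only Control arrays on chip 1. All 6 EtOH arrays lay below the Control median, yet the chip-adjusted difference was 0.25 (-0.07 to 0.58). It was 0.68 on chip 1 and -0.18 on chip 2, and 0.06 without the 4 plexus arrays. In a fit with a term for group by chip, 0 members were called, as were 0% of all genes, and 6 had an unadjusted p under 0.05 (2.93%), against 4.2% of all genes. Zfp593 had the smallest, with an adjusted limma p of 0.812.

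A second probe did not always repeat the first. Of 74 members with several kept probes, the probes of 39 gave 1 sign and those of 35 gave both. The 89 further probes had a median difference of 0.029, with 55 higher in EtOH mice (61.8%). The widest gaps were in Zfp239, with 0.09 for the brighter probe and -0.31 for the dimmer one, in Zfp703, and in Zfp825, with -0.05 and 0.27. Among the 131 members with 1 kept probe 67.2% were higher in EtOH mice.

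Members cluster in the mouse genome, and most runs of neighbours had a median difference above 0, as had the members as a whole. Chromosome 7 held 56 of the 205 members (27.3%), against 7.63% of all measured genes, and chromosomes 17, 8, 13 and 6 held 19, 16, 15 and 13. On chromosome 7 the share higher in EtOH mice was 66.1%, against 49.5% of all measured genes there, and on chromosome 6 it was 46.2%, against 50.5%. Taking runs of at least 4 members with at most 5 protein-coding genes between neighbours, 61 members fell into 10 runs. Among the runs 8 had a median difference above 0 and 2 below it. Of the 61 members in runs, 38 were higher in EtOH mice (62.3%), against 67.3% of all 205 members. In the run Zfp180, Zfp235, Zfp93, Zfp61 and Zfp94 on chromosome 7, 5 of 5 were higher, with differences from 0.0059 to 0.16. In the run Zfp628, Zfp579, Zfp524, Zfp865 and Zfp580 of the same chromosome 1 of 5 was higher, with differences from -0.08 to 0.09. The run on chromosome 6 of Zfp786, Zfp398, Zfp282, Zfp212, Zfp956, Zfp777, Zfp746 and Zfp467 had 3 of 8 higher and a median of -0.03. The other 7 runs all had a median above 0. These runs were chosen here after their values were seen.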

How the data were processed

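The authors deposited a table of non-normalized signal intensity on a linear scale for 45281 probes on each of 12 arrays, with a detection p-value beside each intensity, per the file headers. A second deposited table holds intensity values that, by their shared quantiles, were quantile-normalized, and it served as an alternative. Per the submitters' processing notes GenomeStudio 1.9.0 was used. No build of the probes is given in the sources used here.

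Background correction and quantile normalization were done by neqc (limma 3.58.1, R 4.3.3; background from the detection p-values, offset 16). Probes with a detection p-value under 0.05 on at least 6 arrays were kept, which left 20172. The fit (lmFit and eBayes, two-sided) held group and chip, with Benjamini-Hochberg adjustment over the kept probes at 0.05, and was tested on simulated data. Group means beside a difference are not adjusted for the chip. The number of arrays, 6 per group, limits the precision.

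The members, gene lists and named genes were chosen with earlier results of these data known. Named members are the 8 per direction with the smallest p, the 5 brightest and 3 dimmest, the 4 per direction with the smallest p for chip, the 3 with the widest residuals, the role lists, those at the detection limit, and the 3 whose probes differ most. Selection by fingers in the protein was not used here. Names and promoters come from RefSeq, GRCm38.p6, in which all 205 symbols matched. Alternatives changed the background, scaling, filter, chip term, variance model, weights, replicate block, probe choice, marker covariates and the arrays used.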

Additional observations from a re-analysis of the deposited data

Results flagged for a closer look

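The values of 130 sets of 6 arrays (each group of the 64 named members, and of the members' median per array) were examined for an array far from the rest of its group. In 7 sets the gap between the end array and its neighbour took a share of the group's range above the 95% critical value of Dixon's test, where chance gives 5% of sets, or 6.5. Zfp866 had its lowest values on EtOH 2, 6.3852 (nearest 6.5287), and on Control 2, 6.0559 (nearest 6.4219), both arrays with high choroid plexus transcripts. Without the 4 arrays of that kind its difference was 0.10, against 0.18 with them. Zfp46 stood at 10.9073 on EtOH 6, below the nearest value of 11.2158, and Zfp326 at 9.506 on the same array, above the nearest value of 9.3448. Zfp809 stood at 6.7698 on Control 6, above 6.403, and Zfp711 at 5.9707 on the same array, above 5.5675. Zfp148 stood at 9.5467 on Control 4, below 9.8113. The cause was not tested for any of them.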

How the results depend on the processing

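No member was called between EtOH and Control mice in any of the 29 alternatives, where adjusted p-values went no lower than 0.677. Counted at an unadjusted p under 0.05 there were 8 members, 4 to 12 with 1 array left out and 4 to 9 otherwise. The share of all genes at that p was 3.04% in the fit used above and is not given for the alternatives. The counts of members in the alternatives are therefore not read as a result about the members. The median difference was 0.0272 to 0.0433 with 1 array left out and 0.0226 to 0.0901 otherwise, where 0.0901 came from median scaling, which also shifted all genes. The number of members higher in EtOH mice was 124 to 147 with 1 array left out and 107 to 169 otherwise, of which 107 was out of the 155 members under the stricter filter. With the number in the title as a replicate block, the median was 0.026, against -0.0008 over all genes. In that fit 61% of the members were higher, against 49.6% of all genes, 6 members had an unadjusted p under 0.05 and 0 were called. The deviations of same-numbered arrays correlated between -0.13 and 0.24, with 3 of the 6 pairs over 0.1, so the numbers were not taken to pair the samples. The count called between the chips was 0 to 1 with 1 array left out. It was 4 without background correction and in the second deposited table (Zfp91, Zfp292, Zfp467 and Zfp597), 3 under median scaling (Zfp382, Zfp467 and Zfp593), 3 with the trended, robust variance (Zfp292, Zfp593 and Zfp597) and 2 under the stricter filter (Zfp91 and Zfp467). It was 0 with offset 50, without a filter, with array weights, without the 4 plexus arrays, with the plexus covariate and with the mean of a gene's probes. The share of all genes called between the chips is not given for these alternatives. In the fit used above it was 0.512%, against 0.488% of the members. Whether the counts of members moved with those of all genes was not tested. The cause was not tested. Of the 64 named members 41 changed sign in at least 1 alternative, among them 3 of the 16 with the smallest p. With 6 arrays per group, the unadjusted interval of a typical member reached 0.19 to either side, and a call after adjustment needs more than that.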
